A study of Mus musculus with 6 samples.

Results

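Of the 23361 genes tabulated for whole mouse testis, 9 encode transcription regulators that have been reported to respond to glial cell line-derived neurotrophic factor (GDNF) in cultured spermatogonia or to mark spermatogonial stem cells: Etv5, Etv4, Bcl6b, Lhx1, Pou3f1, Mycn, Id4, Eomes and Egr3. They were taken by name, all 9 were in the table, and their values in all 6 libraries are described here. Sequencing of polyadenylated RNA was done on 6 C57BL/6J mice of about 120 days, each homozygous for the V805A substitution in Ret, including the controls. The 3 control mice received daily injections of vehicle (saline, cremophor and ethanol) for 9 days, and the 3 inhibitor mice received 1NaPP1-HCl, a kinase inhibitor to which the substituted Ret kinase is sensitive, in the same vehicle. All testes were collected on day 14, after 5 days without injections. No mouse with unsubstituted Ret was given the compound, so effects of the compound on Ret and on other kinases cannot be told apart.

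GDNF is secreted by Sertoli and peritubular cells and binds the co-receptor GFRA1 on undifferentiated spermatogonia, which then engages the receptor tyrosine kinase RET. Signals pass through SRC-family kinases, PI3K-AKT and RAS-ERK to the nucleus, where a small group of transcription regulators supports self-renewal of the stem cells. ETV5 and ETV4 are ETS factors of the PEA3 group, BCL6B is a zinc finger repressor, LHX1 a LIM-homeodomain factor and POU3F1 a POU-domain factor. MYCN is a basic helix-loop-helix factor that drives growth, EGR3 an immediate early zinc finger factor, EOMES a T-box factor found in part of the GFRA1-positive cells, and ID4 a helix-loop-helix protein that lacks a DNA-binding domain and sequesters its partners.

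The libraries held 23144295 to 43127892 fragments assigned to genes, so 1 CPM (fragments of a gene scaled to library size) corresponded to 22.9 to 43.9 fragments. None of the marker genes examined for germ cells, Sertoli, Leydig, peritubular, endothelial or immune cells was at 0 in all 6 libraries. Ret itself stood at 2.28, 2.39 and 1.84 CPM in control mice 1, 2 and 3 and at 0.487, 0.656 and 0.595 CPM in inhibitor mice 1, 2 and 3 (log2 fold change −1.91, SE 0.231, adjusted p = 0.0199, edgeR quasi-likelihood test). Its call was lost without control mouse 1 or 2 or inhibitor mouse 1 or 2, with log2 fold changes of −2.01 to −1.80 over the 6 fits that each left out 1 mouse. Gfra1, at 3.88 ± 0.479 CPM in controls and 3.19 ± 0.203 CPM after inhibitor (SD, n = 3 per group), did not pass that test (adjusted p = 0.366). Because whole testis was sequenced, fewer cells of a type and less RNA per cell cannot be told apart.

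The genes lie on 7 chromosomes and all are protein-coding in GENCODE M21 (assembly GRCm38, the same as mm10). Etv5 spans chromosome 16 from 22381309 to 22439719, on the reverse strand. Chromosome 11 carries 3 of them on its reverse strand: Bcl6b from 70224128 to 70229798, Lhx1 from 84518284 to 84525535 and Etv4 from 101769742 to 101785371. Mycn lies on chromosome 12 from 12936093 to 12941914 (reverse strand), and Pou3f1, a gene with 1 exon, on chromosome 4 from 124656807 to 124660655 (forward strand). Id4 lies on chromosome 13 from 48261228 to 48266026, Eomes on chromosome 9 from 118478212 to 118486132 and Egr3 on chromosome 14 from 70077203 to 70082614, all on the forward strand. Antisense or intergenic noncoding genes on the opposite strand share 8.6% of the exonic bases of Pou3f1 (Gm2164), 2.8% of those of Eomes (Gm33460) and 4.4% of those of Id4 (Gm49291). No source used here says whether the counting used strand, so these values may include fragments of such partners.

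RefSeq promoter windows (assembly GRCm38.p6) were at hand for 5 of the 9 genes, with 6 windows between them because Etv5 has 2 starts. The stretches upstream of the annotated exons of Etv5 and Mycn, whose values moved together across the libraries, and of Lhx1, which carried the one sequence shared with a cAMP response element, were the following, written 5′ to 3′ on the gene's strand with every motif match in capitals.
Etv5 (chr16:22439720-22439820, reverse strand): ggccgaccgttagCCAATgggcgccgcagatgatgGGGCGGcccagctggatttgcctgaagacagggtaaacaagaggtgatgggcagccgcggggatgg
Mycn (chr12:12941915-12942064, reverse strand): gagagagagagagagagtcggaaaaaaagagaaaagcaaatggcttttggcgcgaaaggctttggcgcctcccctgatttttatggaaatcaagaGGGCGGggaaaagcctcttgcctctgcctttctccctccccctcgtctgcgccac
Lhx1 (chr11:84525536-84525685, reverse strand): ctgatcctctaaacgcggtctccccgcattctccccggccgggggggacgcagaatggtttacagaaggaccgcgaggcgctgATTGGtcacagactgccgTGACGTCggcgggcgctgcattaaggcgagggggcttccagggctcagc
In the 250 bases before each start, on both strands, the CCAAT box (CCAAT) was found in 5 of the 6 windows, against 33.85% of the 32851 windows of all genes. The GC box (GGGCGG) was found in 3 of 6, against 32.74%. The core of a cAMP response element (TGACGTC) was found in the Lhx1 window alone, against 2.78% of all windows. Sites for the factor families to which these regulators belong were searched in the same way, and none of the 6 windows held the letters CCGGAAGT (ETS, in 2.88% of all windows), GCGTGGGCG (EGR, 0.54%), CACGTG (MYC E-box, 6.02%), ATTTGCAT (POU octamer, 1.6%), AGGTGTGA (T-box site, 1.12%), TAATTA (LIM-homeodomain, 4.84%) or TTCCNNGAA (BCL6, 4.06%). Nor did they hold the letters TATAAA, a form of the TATA box (12.37%), or a CArG box, the element bound by serum response factor (1.47%). Other forms of the TATA box were not searched, and the Eomes window held the letters TATATAAG. Searched motifs can overlap one another, and a match is not evidence of binding.

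In FPKM, the deposited values scaled to transcript length, these regulators covered a wide range of levels in whole testis. Id4 was the most abundant, with a mean of 23.2 FPKM over the 6 libraries (21.5 to 25.4), followed by Egr3 at 9.23 (6.38 to 11.0) and Etv5 at 8.15 (6.76 to 9.50). A middle group held Bcl6b at 1.45, Mycn at 1.43 and Lhx1 at 1.01 FPKM, and the lowest were Pou3f1 at 0.372, Eomes at 0.219 and Etv4 at 0.160. The ranges of Egr3 and Etv5 overlapped, as did those of Bcl6b and Mycn, of Mycn and Lhx1, of Pou3f1 and Eomes, and of Eomes and Etv4. The steps from Id4 to Egr3 (2.51-fold), from Etv5 to Bcl6b (5.62-fold) and from Lhx1 to Pou3f1 (2.7-fold) separated all 6 libraries. For scale, in controls the receptor genes Ret and Gfra1 stood at 0.298 and 1.26 FPKM, Zbtb16, a marker of undifferentiated spermatogonia, at 1.25 and Gata4, a factor of Sertoli cells, at 8.47, close to the 8.52 of Etv5.

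With all 6 mice, 0 of the 9 regulators passed the threshold of 0.05 for the adjusted p of the edgeR quasi-likelihood test, against 0.156% of the 16658 genes tested. All 9 met the filter on low counts. The fitted log2 fold change, inhibitor over control, was negative for 8 of 9, against 51% of all tested genes, with a median of −0.23 against −0.004. Pou3f1 and Mycn had an unadjusted p under the threshold, both lower in inhibitor mice, against 8.48% of tested genes that did so in that direction. In limma-voom 0 of the 9 were called, with 2 of them at an unadjusted p under the threshold. DESeq2 gave no adjusted p for 6 of the 9, Pou3f1 and Mycn among them, so it could not call these. It called none of the others, and 1 of the 9 had an unadjusted p under the threshold. For any 1 gene, an exact permutation test of 3 against 3 mice cannot give a p below 0.1.

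**Figure D1:**
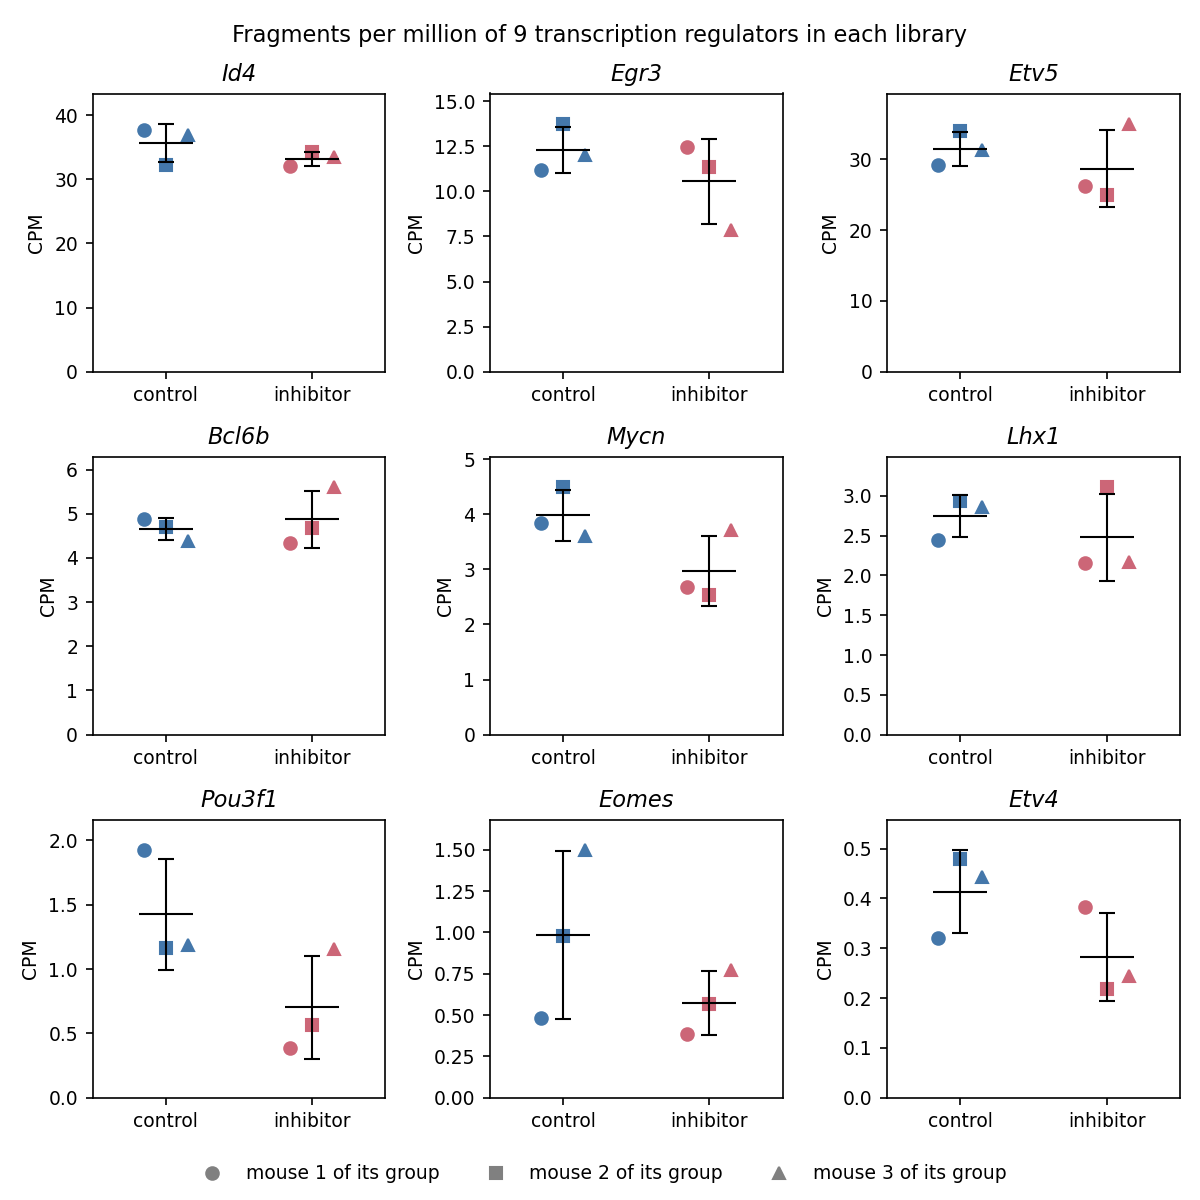
CPM of each of the 9 regulators (vertical axes, linear from 0) in the 3 control (blue) and 3 inhibitor (red) libraries, with marker shapes for the mouse number and bars for the mean ± SD of each group. Pou3f1 is the gene whose groups do not overlap, while inhibitor mouse 3 (triangle) holds the highest inhibitor value in 5 of the 9 panels, against 38.5% of all tested genes, and the lowest for Egr3.

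Among the ETS factors, Etv5 is needed in mice for the stem cell pool to persist and is also made by Sertoli cells. It was at 29.2, 33.9 and 31.3 CPM in control mice 1, 2 and 3, resting on 728, 1490 and 919 fragments, and at 26.2, 24.9 and 34.9 CPM in inhibitor mice 1, 2 and 3. Inhibitor mice 1 and 2 lay below every control, and inhibitor mouse 3 lay above every control. The log2 fold change of Etv5 was −0.13 (SE 0.123, adjusted p = 0.612, edgeR). Its 95% interval runs from 0.751 to 1.11 times the control level. Etv4, its close relative, was near the limit of detection, with 8, 21 and 13 control fragments against 11, 5 and 7 after inhibitor. That gave 0.414 ± 0.083 CPM and 0.282 ± 0.088 CPM (SD, n = 3 per group), with overlapping groups, and an interval from 0.378 to 1.22 times control (log2 fold change −0.56, edgeR adjusted p = 0.482).

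Pou3f1 had the largest estimate. It stood at 1.92, 1.16 and 1.19 CPM in control mice 1, 2 and 3 (48, 51 and 35 fragments) and at 0.382, 0.569 and 1.15 CPM in inhibitor mice 1, 2 and 3 (11, 13 and 33 fragments). The groups did not overlap, as was so in the same direction for 11.9% of all tested genes, but inhibitor mouse 3 lay just under the lowest control. The mean level in inhibitor mice was 49.3% of that in controls, with a log2 fold change of −0.98 (SE 0.371, unadjusted p = 0.0231, adjusted p = 0.203, edgeR) and an interval from 0.288 to 0.894 times control. Lhx1 stood at 2.44, 2.94 and 2.86 CPM in control mice 1, 2 and 3, against 2.16, 3.11 and 2.17 CPM in the inhibitor group. Its inhibitor mouse 2 was the highest of all 6 libraries and the other two the lowest, so the groups overlapped (log2 fold change −0.17, SE 0.186, edgeR adjusted p = 0.676).

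Mycn stood at 3.84, 4.49 and 3.61 CPM in control mice 1, 2 and 3 and at 2.68, 2.54 and 3.71 CPM in inhibitor mice 1, 2 and 3. As for Etv5, inhibitor mice 1 and 2 were below every control, but here inhibitor mouse 3 was within the control range. The log2 fold change was −0.42 (SE 0.176, unadjusted p = 0.0341, adjusted p = 0.238, edgeR), with an interval from 0.573 to 0.975 times control. Bcl6b was at 4.89, 4.69 and 4.39 CPM in the control libraries against 4.35, 4.68 and 5.60 CPM after inhibitor, with inhibitor mouse 3 again the highest of its group and of all libraries. Bcl6b was the member with a positive estimate (log2 fold change 0.07, SE 0.140, edgeR adjusted p = 0.841), and its interval, 0.849 to 1.29 times control, does not reach the size of the Pou3f1 estimate.

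Id4 and Eomes mark stem cells or part of the undifferentiated population. Id4, with the most fragments per kilobase, was also the most tightly measured: 37.6, 32.2 and 36.9 CPM in control libraries against 32.1, 34.2 and 33.4 CPM after inhibitor, with overlapping groups. Its log2 fold change was −0.10 (SE 0.073, edgeR adjusted p = 0.52), and its interval ran from 0.837 to 1.04 times control. Eomes rested on 12, 43 and 44 fragments in controls against 11, 13 and 22 after inhibitor, or 0.481, 0.980 and 1.50 CPM against 0.382, 0.569 and 0.770 CPM. Control mouse 1 lay among the inhibitor mice, so the groups overlapped, and the estimate of −0.80 had an SE of 0.401 (edgeR adjusted p = 0.323).

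Egr3 had the opposite pattern within the inhibitor group. It stood at 11.2, 13.7 and 12.0 CPM in control mice 1, 2 and 3, at 12.4 and 11.3 CPM in inhibitor mice 1 and 2, and at 7.87 CPM in inhibitor mouse 3. Inhibitor mice 1 and 2 lay within the control range and inhibitor mouse 3 far below it. The log2 fold change was −0.23 (SE 0.157, edgeR adjusted p = 0.481), and without inhibitor mouse 3 it was −0.06 (adjusted p = 0.781).

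**Figure D2:**
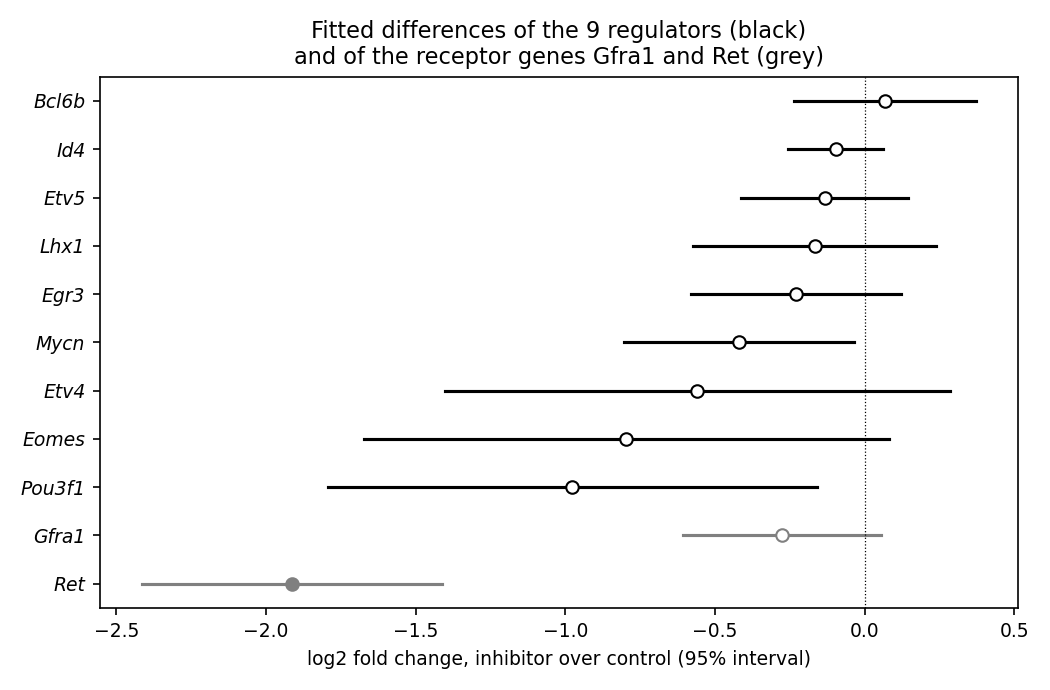
Fitted log2 fold change of each regulator (black) and of Gfra1 and Ret (grey) on the horizontal axis, with the 95% interval of the edgeR fit as a line; a filled point marks an adjusted p under 0.05. The estimates run from −0.98 for Pou3f1 to 0.07 for Bcl6b, and Ret has the one filled point.

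The calls depended on inhibitor mouse 3. Without it, 3 of the 9 passed, all lower in the inhibitor mice: Pou3f1 (log2 fold change −1.57, SE 0.356, adjusted p = 0.00959), Mycn (−0.62, SE 0.173, adjusted p = 0.0285) and Etv5 (−0.30, SE 0.076, adjusted p = 0.0164, all by edgeR). In that fit 14.3% of 16871 tested genes passed and 5.54% passed as lower, so the background was also far higher than with all mice, and the inhibitor group was down to 2 mice. Markers of several cell types were called in the same fit: 7 of 17 tested genes of undifferentiated spermatogonia, 3 of 9 of differentiating spermatogonia and 5 of 13 Sertoli genes (Gata4, Sox9, Clu, Amhr2 and Inha, named after their values were seen) were lower. Also lower were 1 of 8 Leydig, 1 of 7 peritubular myoid and 1 of 7 endothelial genes. Higher there were 1 Sertoli gene (Cst9), 5 of 10 spermatocyte genes, 5 of 10 spermatid genes and 2 of 10 macrophage and lymphocyte genes. All 9 estimates were then negative, with Eomes at −1.09 (adjusted p = 0.134, edgeR), Bcl6b at −0.05 and Lhx1 at −0.08. With any other mouse left out, 0 of the 9 passed in edgeR, and 8 of 9 estimates stayed negative. In those fits 0 of all tested genes passed, or 10 without control mouse 3, so a count of 0 says little about the 9. The ranges over the 6 fits were −1.57 to −0.66 for Pou3f1, −0.62 to −0.32 for Mycn, −0.30 to −0.05 for Etv5 and −0.16 to −0.06 for Id4. Eomes ranged from −1.09 to −0.41 (without control mouse 3), Egr3 from −0.37 to −0.06, Lhx1 from −0.35 to −0.08 and Etv4 from −0.85 to −0.42.

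**Figure D3:**
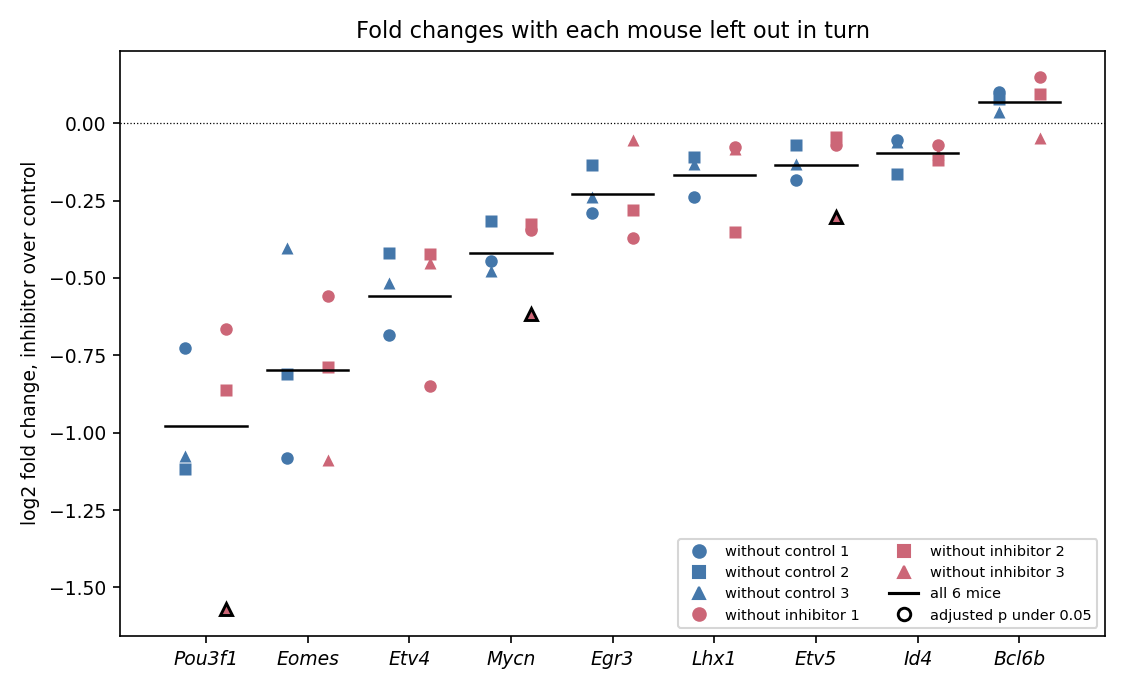
Log2 fold change of each regulator (vertical axis) with all 6 mice (black line) and with each mouse left out in turn (symbols; blue for a control, red for an inhibitor mouse); a black rim marks an adjusted p under 0.05. The 3 rimmed points, for Pou3f1, Mycn and Etv5, are all fits without inhibitor mouse 3.

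Marker genes of the cell types were read library by library beside these values. Of 16 tested genes of undifferentiated spermatogonia, 11, 9 and 12 lay below all 3 controls in inhibitor mice 1, 2 and 3. Such a count does not say how far below the controls a gene lay. For the 13 Sertoli cell genes the corresponding numbers were 12, 10 and 3, and for the 9 regulators they were 7, 4 and 4. Over all tested genes the shares were 34.6%, 35.5% and 30.8%. The 4 regulators below all controls in inhibitor mouse 3 were Etv4, Lhx1, Pou3f1 and Egr3, while Etv5 and Bcl6b were above all controls there. The mean log2 CPM of the undifferentiated list was 0.53 to 0.82 in controls and −0.05, 0.07 and 0.03 in inhibitor mice 1, 2 and 3, and that of the Sertoli list was 4.96 to 5.05 in controls and 4.81, 4.84 and 5.00. For the endothelial list it was 1.87 to 2.10 in controls and 1.88, 1.53 and 1.97. A mean near the controls in inhibitor mouse 3 was thus not particular to the Sertoli list. The summed level of the 20 undifferentiated genes was 76.1 to 81.4 CPM in controls against 51.4 to 57.6 CPM after inhibitor. Of the 16 tested, 13 had lower and 3 had higher estimates. Nanos2 and Pax7 of that list, named after their values were seen, were at 0 fragments in every inhibitor library. They were at 1 to 3 fragments in the controls, too few to read a change from. The summed level of the 13 Sertoli genes was 1610 to 1663 CPM in controls against 1476 to 1814 CPM after inhibitor, with no gene at 0 in all libraries. Clu alone stood at 997, 1008.5 and 970 CPM in control mice 1, 2 and 3 and at 869, 870 and 1127 CPM after inhibitor. This sum therefore says little about Sertoli genes at lower levels. The part of any of these cell types in the values of the regulators was not tested.

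**Figure D4:**
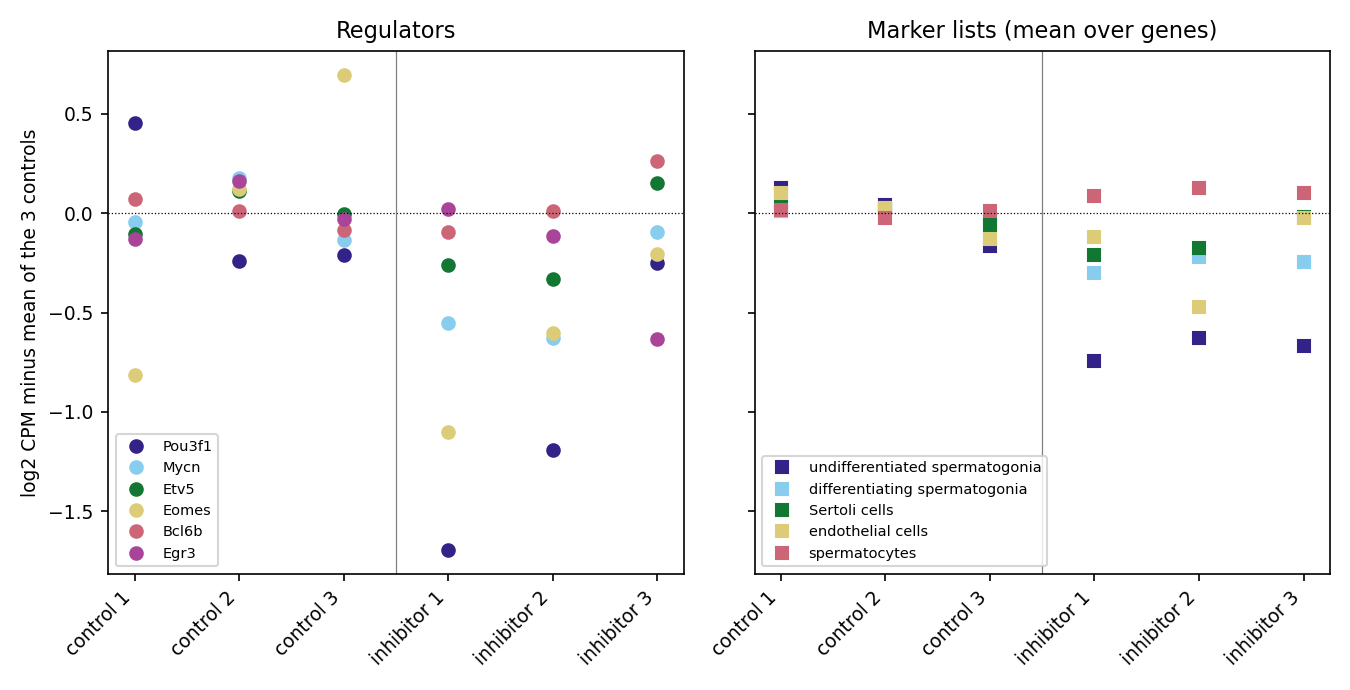
Log2 CPM minus the mean of the 3 controls for 6 of the regulators (left, circles) and for the mean of 5 marker lists (right, squares), by library. In inhibitor mouse 3 the mean of the undifferentiated spermatogonial list stays as low as in inhibitor mice 1 and 2. Etv5, Mycn and the Sertoli and endothelial lists lie near the control level there, and Egr3 is the lowest of the 6 regulators. Etv4, Lhx1 and Id4, which are not drawn, were at −0.61, −0.33 and −0.09 in that mouse, against −0.63 for Egr3.

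The 2 genes most like each regulator were looked up among 146 genes of the other lists by Pearson's r of log2 CPM over the 6 libraries, as a description over 2 groups of 3 mice that share the group difference. A mean log2 CPM of at least 0 was asked of the regulators but not of the 146 genes, and the highest of 146 values is high partly through being picked. Etv5 was most like Gata4 of the Sertoli list (r = 0.969) and Nefm, a neurofilament gene reported to respond to GDNF (0.957). Nefm rested on 5, 20 and 12 fragments in control mice 1, 2 and 3 and on 3, 2 and 11 in inhibitor mice 1, 2 and 3. Gata4 stood at 27.1, 28.6 and 27.0 CPM in control mice 1, 2 and 3, against 23.0, 22.4 and 29.5 CPM after inhibitor, the same order of libraries within the inhibitor group as Etv5. Mycn was most like the endothelial gene Eng (0.988) and the RAS exchange factor gene Sos2 (0.979), and Pou3f1 most like the PI3K regulatory subunit gene Pik3r2 (0.984) and Taf4b of undifferentiated spermatogonia (0.963). Bcl6b was nearest to Wt1 of Sertoli cells (0.873) and Tek of endothelium (0.84), Lhx1 to Rhox5 (0.87) and Sohlh1 (0.868), Id4 to Gfra1 (0.829) and Pik3ca (0.815), and Egr3 to Lyn (0.889) and Emr1 (0.857), a macrophage gene. Among the regulators themselves, Etv5 and Mycn had r = 0.88, Mycn and Pou3f1 0.83, and Bcl6b and Egr3 −0.86.

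The paralogues of the 9 regulators gave no call either. Of 11 tested among 16, 7 were lower and 4 higher, with a median log2 fold change of −0.17. Egr4, which belongs with Egr3 to the early growth response family, had the smallest p, at 8.13 ± 0.901 CPM in controls against 6.11 ± 0.199 CPM after inhibitor (SD, n = 3 per group), and its groups did not overlap (log2 fold change −0.42, edgeR adjusted p = 0.118). Id3, a relative of Id4, was at −0.48 (adjusted p = 0.332, edgeR). Egr2, named after its values were seen, did not meet the filter on low counts, with 13, 15 and 9 fragments in controls and 3, 4 and 4 in inhibitor mice. Etv1, the third PEA3 factor and also named after its values were seen, was at −0.10 (adjusted p = 0.744, edgeR), its groups overlapping.

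Upstream of the regulators, the 7 tested GDNF family ligands and receptors had 4 lower and 3 higher estimates, with Ret called. Of the 31 tested kinases and adaptors that link Ret to transcription, 25 had lower and 6 higher estimates, with a median of −0.10 and 0 called. At an unadjusted p under the threshold were 3 of them in edgeR, all lower, against 8.48% of tested genes. They included the ERK kinase gene Map2k2 (−0.14, adjusted p = 0.181, edgeR) and Braf (−0.14, adjusted p = 0.227). In inhibitor mouse 3, 8 of the 31 lay below all controls, against 23 and 19 in inhibitor mice 1 and 2.

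Among 12 tested of 16 other genes reported to respond to GDNF, 10 had lower and 2 higher estimates, with a median of −0.14, and Ccnd2 fell. This G1 cyclin stood at 8.25, 9.09 and 8.78 CPM in control libraries against 5.08, 5.51 and 5.25 CPM after inhibitor (log2 fold change −0.73, SE 0.110, adjusted p = 0.0319, edgeR), with inhibitor mouse 3 between the other two. Of the 6 fits that each left out 1 mouse, the one without inhibitor mouse 3 still called Ccnd2 in edgeR, although its log2 fold change kept to −0.76 to −0.69 in these fits, and limma on log2(FPKM + 1) did not call it (adjusted p = 0.15). The feedback genes of ERK signalling did not pass: Dusp6 was at −0.22, Spry4 at −0.17, Spry2 at −0.24 and Dusp4 at −0.04, with edgeR adjusted p from 0.464 to 0.854. These 4 were named after their values were seen.

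The marker lists of the testis were counted in the same fit. Of 16 tested marker genes of undifferentiated spermatogonia, 13 had lower and 3 higher estimates in whole testis, with a median of −0.49. The 4 called, all lower, were Ret, Sox3 (log2 fold change −1.50), Zbtb16 (−0.99) and Lin28a (−1.13). The calls of Sox3, Zbtb16 and Lin28a were likewise lost in edgeR with any single mouse other than inhibitor mouse 3 left out, with log2 fold changes of −1.70 to −1.28, −1.07 to −0.88 and −1.37 to −0.98, and on log2(FPKM + 1) none of the 4 was called. For marker genes of differentiating spermatogonia 8 of 9 estimates were lower and 0 were called (median −0.25, Dnmt3b −0.53, Crabp1 −0.64). Spermatocyte genes had a median of 0.13 (Pou5f2 0.26, Pgk2 0.19) and spermatid genes of 0.10 (Akap4 0.17, Prm2 0.16). The medians were −0.11 for Sertoli cells (Cst9 0.23, Amh −0.65), −0.08 for Leydig cells (Nr5a1 −0.17, Insl3 −0.22), −0.22 for peritubular myoid cells (Mylk −0.22, Cnn1 −0.46), −0.15 for endothelium (Eng −0.34, Vwf −0.15) and 0.10 for macrophages and lymphocytes (Aif1 0.20, Lyz2 0.32). In controls Aif1 had a mean of 319.5 CPM, against 12.6 for Lyz2 and 3.79 for Emr1, and which cells gave its RNA was not tested. Outside the undifferentiated list 0 of 74 tested marker genes were called in edgeR with all 6 mice, and 27 had an unadjusted p under the threshold, against 17.9% of all tested genes. The median of the 9 regulators, −0.23, was nearest to those of the peritubular (−0.22) and differentiating spermatogonial (−0.25) lists, and no difference between lists was tested.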

How the data were processed

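Polyadenylated RNA of whole testis was sequenced in 3 control and 3 inhibitor mice; the labels call each library a separate mouse. Per the submitters' processing notes, which give no roles, the tools were cutadapt 1.8, TopHat2 2.0.13 and Cuffdiff 2.2.1, with build mm10. The expected counts deposited by the authors (fragments per gene and library, before scaling) were whole in 98.8% of 140166 values within 1e-06, and were rounded. The FPKM values deposited by the authors are scaled to transcript length and library size by their software. A signal of fragments scaled between libraries, also deposited by the authors, was not used. The FPKM served for levels between genes and for 2 alternatives on log2(FPKM + 1) and log2(FPKM + 0.1).

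Counts of all genes were fitted with edgeR 4.0.16 (R 4.3.3; filterByExpr, TMM, robust quasi-likelihood F-test, two-sided, Benjamini-Hochberg adjustment over 16658 tested genes, threshold 0.05). CPM uses TMM-scaled totals; log2 CPM has a prior count of 2. Intervals at 95% come from the fitted SE. The procedure was tested on simulated counts. Alternatives used RLE factors, library totals, other filters, DESeq2 1.42.0, limma 3.58.1, a block on mouse number, leaving out single mice, and a loess offset (span 0.5) on transcript length and GC content from GENCODE M21, known for 99% of tested genes.

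The 9 regulators, the 13 other lists (171 symbols in all with the 9, all matched, 4 by synonym) and the tests were chosen with earlier results of these data known. Named genes were all 9 regulators, Ret and Gfra1, in each list every called gene or else the 2 with the smallest p, and the 2 genes of other lists most like each regulator whose mean log2 CPM was at least 0. Other genes are marked in the text as named after their values were seen. Promoter letters came from RefSeq, without bases in annotated exons. No gene position from another build was used.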

Additional observations from a re-analysis of the deposited data

How the results depend on the processing

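With all 6 mice, 0 of the 9 regulators passed under every other normalisation, filter or test, and the median of their log2 fold changes stayed between −0.26 (library totals alone) or −0.27 (limma-voom) and −0.13 (log2(FPKM + 1), where the pseudocount shrinks low genes). Leaving out single mice gave 0 to 3 regulators past the threshold and medians of −0.345 to −0.16. The 3, without inhibitor mouse 3, were Etv5 at −0.30, Pou3f1 at −1.57 and Mycn at −0.62. The count over all genes was 26 and moved with most choices: 115 without a filter on low counts, 10 with at least 50 counts in 3 libraries, 533 in DESeq2, 14 in limma-voom, 0 on log2(FPKM + 1), 1 on log2(FPKM + 0.1), and 0 to 2405 with single mice left out; the cause was not tested. The replicate block by mouse number gave 5 calls over all genes and 0 regulators, and with the length and GC offset added it gave 2 and 0. Deviations of same-numbered mice from their group means had correlations of 0.096, −0.066 and 0.064, against −0.182 to 0.132 for unlike numbers. No strong pairing by number was seen, but such values cannot exclude a weak one. DESeq2 gave no adjusted p for 6 of the 9 regulators, and 6 of the 9 met the filter of 50 counts. With the length and GC offset the estimate of Etv5 went from −0.13 to −0.08 (edgeR adjusted p = 0.794). Etv4, Eomes and Pou3f1 rested on 5 to 51 fragments per library, which limits them most.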
